A study of Mus musculus with 18 samples.

Results

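miR-802 is a microRNA (miRNA) whose hairpin precursor gives a mature strand from each side, the 5p arm (mmu-miR-802-5p in the table) and the 3p arm (mmu-miR-802-3p), written here without the mouse prefix. Both arms were described here in small RNA sequencing of mouse kidney, as 2 of 1184 named entries of the count table, found by name over all 18 libraries. They were chosen by their higher counts in both diabetic groups than in control, seen in earlier results of these data. Their differences from control are therefore given as description without a test. The comparison of treated with untreated diabetic kidneys was not itself the rule of choice. Still, choosing entries raised in both diabetic groups favours a small difference between those groups, so that comparison is not independent of the choice.

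The study compared 3 groups with 6 libraries each. The treated libraries came from kidneys of C57BL/KsJ mice with diabetic nephropathy (DN) that received 10 mg/kg/day of germacrone, a sesquiterpene found in plants. The DN libraries came from C57BL/KsJ mice that received 0.9% saline, and the control libraries from C57BL/6J mice that received 0.9% saline. The genotype and age of the mice are not given in the labels used here. Both groups with DN are of one strain and all controls of another, so a strain difference and a disease difference cannot be told apart against control. Since nothing in the labels ties each library to its own mouse, the p-values take in only the spread between libraries, and part of that spread may be technical.

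miRNAs are short RNAs that guide Argonaute proteins to messenger RNAs and lower their stability or translation, mainly through pairing of the seed, the bases near the 5′ end. In mice, miR-802 is known from liver, where it is raised in obesity and has been linked to impaired glucose handling, and it is also studied in intestine and pancreas.

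The mature sequences show what was counted and why the arms are separate readouts: they share no seed. RefSeq (GRCm38.p6) held both arms, and both are printed 5′ to 3′ with the seed, bases 2 to 8, in capitals.
miR-802-5p: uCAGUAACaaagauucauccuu
miR-802-3p: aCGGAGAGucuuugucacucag
The 5p arm lies at chr16:93369737-93369758 and the 3p arm at chr16:93369775-93369796, both on the plus strand. No other mature mouse miRNA in the RefSeq table carried either seed. The table of counts held 0 entries for miR-802 of another species, and no other entry had the same counts as either arm, so neither arm shared its counts with a copy.

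The hairpin shows how the arms lie in their precursor, with both mature arms in capitals.
Mir802 hairpin: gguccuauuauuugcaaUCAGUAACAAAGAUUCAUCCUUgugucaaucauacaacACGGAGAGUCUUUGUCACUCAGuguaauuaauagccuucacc
It spans chr16:93369720-93369816 on the plus strand (97 bases, 38.1% G or C). RNAfold predicted a fold of −30.80 kcal/mol with 16 base pairs between the arms and 16 bases between them in the loop. No GENCODE M21 gene overlapped the hairpin besides Mir802 itself. The end of the lincRNA 1810044K17Rik lay 691 bp before it on the same strand, and the nearest protein-coding genes were Runx1, 544 kb before, and Setd4, 214 kb after.

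Total counts were 3645173 to 7239343 per library, and 619 entries passed the filter on low counts, both arms of miR-802 among them. Levels are CPM (counts scaled to a common library total) after scaling by trimmed mean of M-values (TMM), and values are mean ± SD over 6 libraries. miRNAs of kidney tubule and epithelium, such as miR-192-5p and miR-30a-5p, summed to 214179 to 305855 CPM in treated, 72809 to 272207 in DN and 144488 to 219645 in control libraries. The control 2, DN 2 and DN 3 libraries stood apart, with a median correlation with their own group of 0.946, 0.896 and 0.926, against 0.958 to 0.973 in the others. DN 2 also had 11592 CPM summed over 5 leukocyte miRNAs, against 499 to 1263 in the other 17 libraries. In whole kidney, more cells that make a miRNA and more of it per cell cannot be told apart.

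miR-802-5p, the major arm, was several-fold higher in both groups with DN than in control, and about equal in treated and untreated DN kidneys. In treated libraries 1 to 6 it was at 199, 266, 114, 195, 99.7 and 158 CPM. DN libraries 1 to 6 had 266, 73.5, 48.9, 152, 227 and 336 CPM, and control libraries 1 to 6 had 30.1, 3.66, 29.5, 36.8, 34.6 and 75.8 CPM. All 6 treated libraries lay above the highest control, whereas DN 2 and DN 3 lay below control 6 and overlapped the controls. In the order of all 18 libraries, the first 10 places were held by the treated libraries and the other 4 DN libraries. The lowest value, in control 2, rested on 27 reads, and the highest, in DN 6, on 1648 reads.

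**Figure D1:**
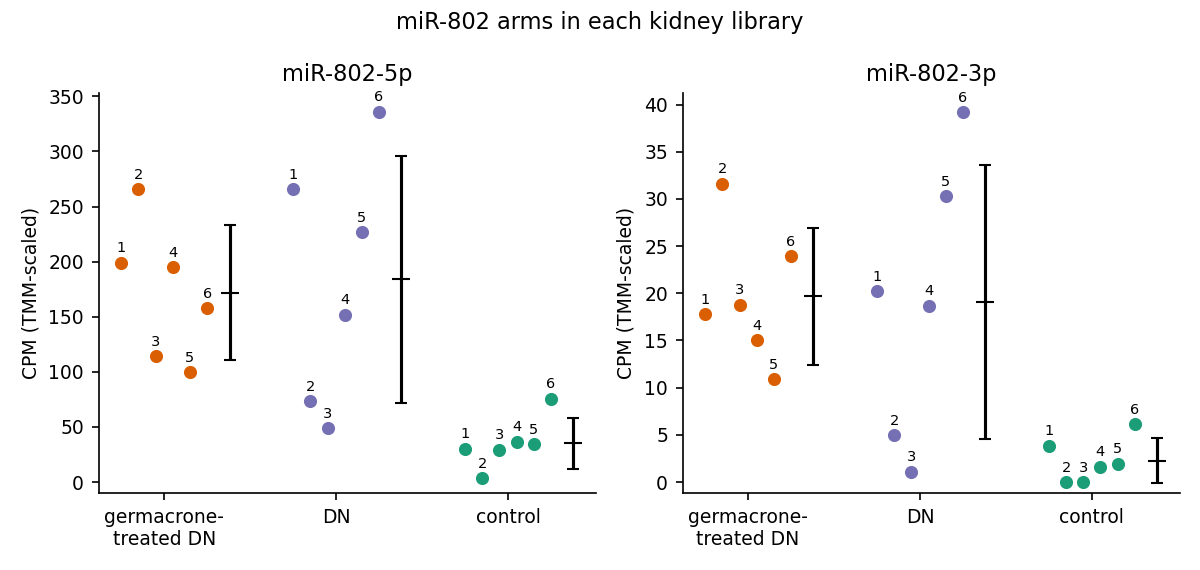
CPM of miR-802-5p (left) and miR-802-3p (right) in each library, numbered by replicate, for treated, DN and control kidneys; points are libraries and bars are mean ± SD (n = 6 each). The treated libraries sit above every control in both panels, while DN 2 and DN 3 sit among the controls.

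Mean levels of miR-802-5p were 172 ± 61.4 CPM in treated, 184 ± 112 in DN and 35.1 ± 23.3 in control kidneys (SD, n = 6 each). The spread within a group was wide: the highest library exceeded the lowest 2.67-fold in treated, 6.87-fold in DN and 20.7-fold in control kidneys. Among 735 mouse names ordered by level, the 5p arm ranked 126 to 187 in treated, 118 to 225 in DN and 196 to 396 in control libraries. In the order of group means over the mouse miRNAs that passed the filter, its nearest neighbours, close in level by construction, give its scale. These were miR-1843a-5p (174 ± 18.2 CPM) and miR-872-3p (172 ± 26) in treated, miR-450a-5p (187 ± 77.8) and miR-24-2-5p (182 ± 67.9) in DN, and miR-133a-3p (35.6 ± 17.1) and miR-3068-3p (34.5 ± 8.1) in control kidneys.

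miR-802-3p, the minor arm, was also higher in both groups with DN than in control, at a lower level than the 5p arm. It was at 17.8, 31.6, 18.8, 15, 10.9 and 23.9 CPM in treated libraries 1 to 6. DN libraries 1 to 6 had 20.2, 4.95, 1.09, 18.7, 30.3 and 39.2 CPM, and control libraries 1 to 6 had 3.86, 0, 0, 1.63, 1.95 and 6.14 CPM. Again all 6 treated libraries exceeded the highest control, as did 4 of 6 DN libraries, with DN 2 and DN 3 the exceptions. Means were 19.7 ± 7.27 CPM in treated, 19.1 ± 14.5 in DN and 2.26 ± 2.38 in control kidneys (SD, n = 6 each). No read of the 3p arm was counted in control 2 and control 3, where a count of 0 allows levels of up to 0.407 and 0.553 CPM (3 reads, counting error only).

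Fitted over all entries with edgeR, miR-802-5p was higher in treated than in control kidneys by a log2 fold change (log2FC) of 2.30 (SE 0.507, 95% interval 1.24 to 3.36), which is 4.91-fold. For miR-802-3p the same contrast was 3.14 (SE 0.799, interval 1.47 to 4.81), or 8.82-fold. In DN against control the 5p arm was at 2.39 (SE 0.507, interval 1.33 to 3.45), or 5.25-fold, and the 3p arm at 3.10 (SE 0.798, interval 1.43 to 4.76), or 8.55-fold. These contrasts share their control libraries, and they chose the miRNA, so the values describe it and no p is given. The intervals do not allow for that choice, so they are no test of a difference from control. At an adjusted p under 0.05, edgeR called 0% of 619 entries in treated against control and 0% in DN against control. DESeq2 called 3.88% and 0.646%, and limma-voom 17.1% and 14.7%. In edgeR, unadjusted p was under 0.05 for 19.5% of entries in treated against control and 7.59% in DN against control, and in DESeq2 for 21.5% and 8.72%. By size, no entry had a larger log2FC than the 3p arm and 3 exceeded the 5p arm in treated against control, while 2 and 4 did so in DN against control. The median log2FC of all 619 entries was −0.00 in treated against control and 0.08 in DN against control. Every treated library lay above every control for 3.55% of entries (22 of 619), both arms included, and every DN library above every control for 0%. In DN against control, the 5p log2FC was 2.24 without control 2, 2.55 without DN 2 and 2.58 without DN 3.

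**Figure D2:**
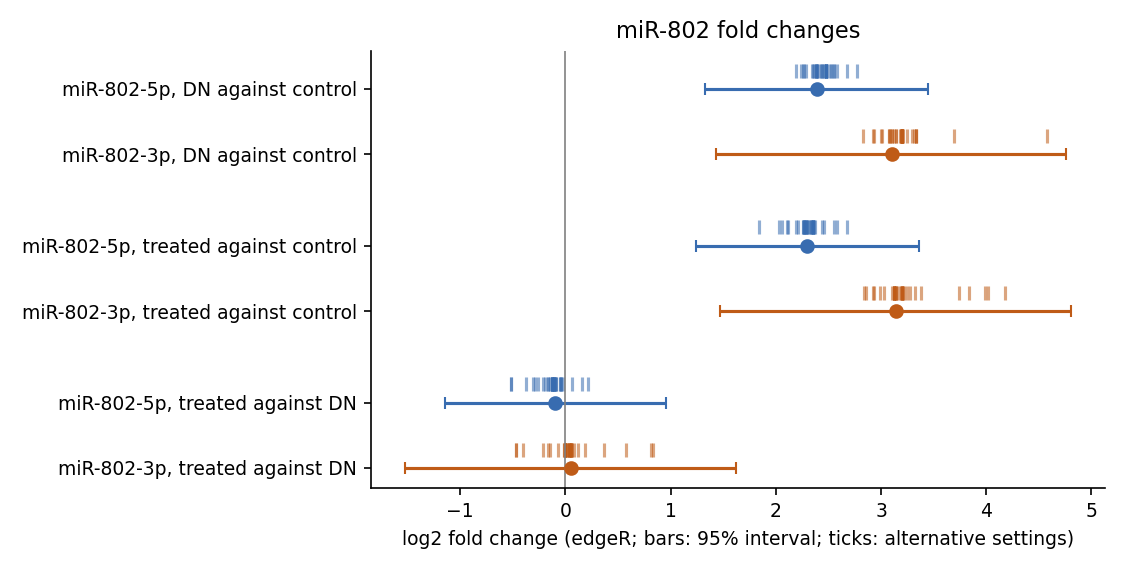
Log2FC of each arm in the 3 comparisons, with edgeR's 95% interval as a bar and each alternative setting as a tick. The bars do not allow for the choice of the arms by their difference from control. The values against control lie between 1.84 and 4.58 under every setting run, and those of treated against DN lie on both sides of 0, between −0.52 and 0.83.

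Whether germacrone changed miR-802 in DN kidneys is the question that treated against DN addresses, and no difference was detected in either arm. miR-802-5p had a log2FC of −0.10 (SE 0.504, 95% interval −1.15 to 0.96, edgeR adjusted p = 0.991), with 3 of 6 treated libraries above the DN median. miR-802-3p had a log2FC of 0.05 (SE 0.753, interval −1.53 to 1.62, edgeR adjusted p = 0.991), with 2 of 6 above the DN median. The test called 0% of 619 entries in this comparison, 3.72% had an unadjusted p under 0.05, DESeq2 called 0% with 4.52% at an unadjusted p under 0.05, and limma-voom called 0%. The intervals are wide, about 1 log2 unit to either side for the 5p arm, so a change within them was not detectable here. The arms were also chosen as high in both groups with DN, which favours a small difference in this comparison.

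Exact 2-sided permutation tests of the same 6 treated and 6 DN libraries also detected no difference. They reuse the counts of the fit, so they are not independent of it or of the choice of the arms. Their p was adjusted over 4 quantities, with 0.00216 the smallest p the design allows. The mean log2 CPM of miR-802-5p was 7.35 ± 0.53 in treated and 7.23 ± 1.10 in DN libraries (difference 0.12, exact p = 0.803, adjusted 0.803). For miR-802-3p it was 4.25 ± 0.52 in treated and 3.65 ± 1.80 in DN libraries (difference 0.60, exact p = 0.502, adjusted 0.803). The summed arms differed by 0.16 (exact p = 0.762, adjusted 0.803). The 5p difference has the opposite sign to the edgeR value, because a mean of logs gives the low DN 2 and DN 3 libraries more weight than a fit to counts. It was −0.08 without DN 2, −0.20 without DN 3 and −0.02 without treated 2. The treated libraries varied less than the DN libraries around these means, with an SD of log2 CPM of 0.53 against 1.10 for the 5p arm. That difference in spread was not tested.

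The arms were compared within each library, since arm choice can differ between tissues for other miRNAs. The 3p arm made up 8.24%, 10.6%, 14.2%, 7.13%, 9.83% and 13.2% of miR-802 reads in treated libraries 1 to 6. Its share was 7.04%, 6.31%, 2.18%, 11%, 11.8% and 10.4% in DN libraries 1 to 6, and 11.4%, 0%, 0%, 4.26%, 5.33% and 7.49% in control libraries 1 to 6. The groups overlapped, and the 5p arm was the major one in every library. The share averaged 10.5 ± 2.73% in treated, 8.12 ± 3.65% in DN and 4.74 ± 4.4% in control kidneys (SD, n = 6 each). In control 2 the count of 0 among 27 reads allows a share of up to 11.1%, and in control 3 the 0 among 160 reads allows up to 1.88%. Summed over libraries, the share was 10.2% in treated (488 of 4777 reads, 95% Clopper-Pearson interval 9.37 to 11.1), 9.5% in DN (565 of 5947, 8.77 to 10.3) and 5.92% in control kidneys (62 of 1048, 4.57 to 7.52). These intervals cover counting error only and not the spread between libraries. The log2 ratio of 3p to 5p was −3.10 ± 0.42 in treated and −3.58 ± 0.81 in DN libraries, a difference of 0.48 that did not pass (exact permutation p = 0.229, adjusted 0.803).

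**Figure D3:**
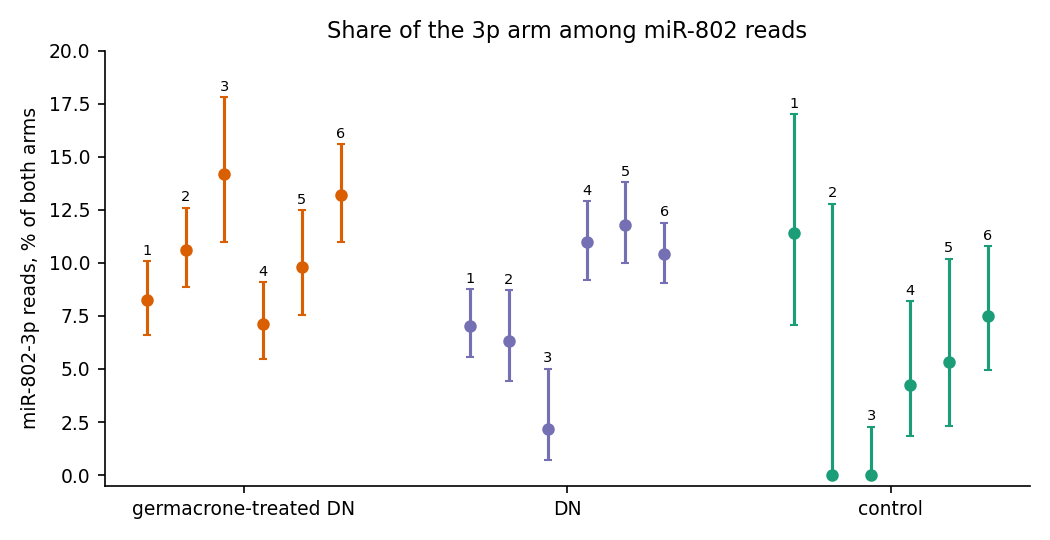
Share of the 3p arm among all miR-802 reads in each library, numbered by replicate, with 95% Clopper-Pearson intervals as bars. Shares lie between 7.13% and 14.2% in treated, 2.18% and 11.8% in DN and 0% and 11.4% in control libraries, and the interval is 0 to 12.8% in control 2, which holds 27 miR-802 reads.

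The arms correlated positively in each group, and after adjustment only the Pearson r of the DN libraries had an exact permutation p under 0.05. Whether the correlation differs between groups was not tested. Over the 6 DN libraries, log2 CPM of the arms had a Pearson r of 0.96 (exact permutation p = 0.00556, adjusted 0.0333 over 6 correlations) and a Spearman rho of 0.94 (p = 0.0167, adjusted 0.05). Without DN 2 and DN 3, the 2 libraries farthest from the median of the 5p arm, the r was 0.72 (exact permutation p = 0.292). Leaving out the farthest libraries narrows the range and leaves 4, so this cannot show whether the relation rests on them. In treated libraries r was 0.68 (exact permutation p = 0.124, adjusted 0.148) with rho 0.54 (p = 0.297, adjusted 0.297), and 0.46 without treated 3 and treated 5. In control libraries r was 0.73 (exact permutation p = 0.0417, adjusted 0.0833) with rho 0.75 (p = 0.106, adjusted 0.148), and 0.34 without control 2 and control 6. The arms share the library and its depth.

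The libraries differed in how their counts depended on base composition, and miR-802-5p is poor in G and C. Its GC content is 31.8%, while that of miR-802-3p is 50%. Of 372 mouse miRNAs that passed the filter and had a sequence (median 47.7%), 2.69% had a lower GC content than miR-802-5p. The GC slope of a library is the change in log2 CPM, relative to the mean of all libraries, per 10 percentage points of GC. It ran from −0.30 to 0.07 in treated, −0.20 to 0.50 in DN and −0.19 to 0.63 in control libraries. In each group the library with the steepest rise with GC (treated 5, DN 3 and control 2) was also the lowest in miR-802-5p. These were the lowest in miR-802-3p as well, together with control 3.

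Adjusting each library for its own GC slope, a step chosen after seeing the data, narrowed the groups for the 5p arm. The adjusted log2 CPM of miR-802-5p ran from 6.55 to 7.57 in treated, 6.37 to 8.11 in DN and 3.06 to 5.94 in control libraries. Both groups with DN lay above control here, for a miRNA chosen by that difference. The share of all entries that do so after adjustment was not computed. Its SD was 0.39 after adjustment and 0.53 before in treated, 0.72 and 1.10 in DN, and 0.99 and 1.42 in control libraries. For miR-802-3p the adjusted SD was 0.54, 1.84 and 1.73 in treated, DN and control libraries, against 0.52, 1.80 and 1.69 before. With the GC slope as an offset in edgeR, the 5p log2FC was 2.06 (SE 0.373) in treated against control and 2.27 (SE 0.373) in DN against control. Without the offset these were 2.30 and 2.39.

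**Figure D4:**
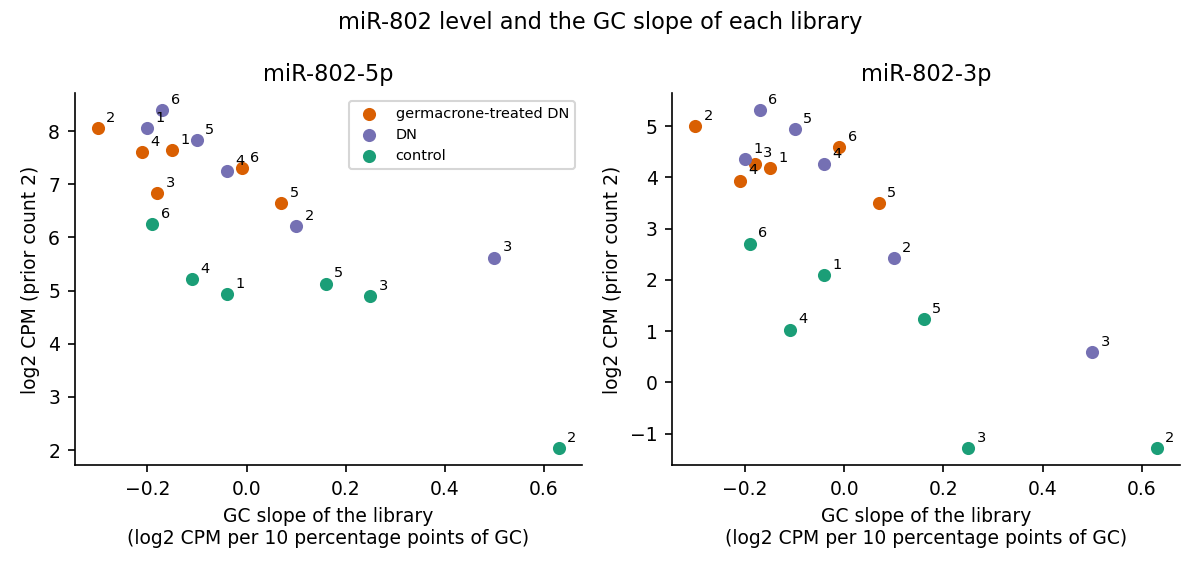
Log2 CPM of miR-802-5p (left) and miR-802-3p (right) against the GC slope of each library, numbered by replicate and coloured by group. Within each group the 5p arm is lowest in the library with the highest slope (treated 5 at 0.07, DN 3 at 0.50 and control 2 at 0.63). Control libraries with slopes above 0.07 have no treated library beside them. The arms were chosen by their difference from control, and the part of the slope in it was not tested.

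miR-802 is abundant in liver and is studied in pancreas and intestine, so markers of those tissues were set beside it. miR-122-5p, the most abundant miRNA of hepatocytes, was at 5.58 to 42.9 CPM (median 8.72) in treated, 5.8 to 118 (33.8) in DN and 8.03 to 46.1 (16.7) in control libraries. These ranges overlap, and its log2FC was −0.24 (SE 0.681, edgeR adjusted p = 0.867) in treated against control and 1.26 (SE 0.675, edgeR adjusted p = 0.684) in DN against control. The ratio of miR-802-5p to it was 5.25 to 34.9 in treated, 0.805 to 39.1 in DN and 0.2 to 9.44 in control libraries, and miR-802-5p was the lower one in DN 2, control 2 and control 5. DN 5 had the lowest miR-122-5p of its group at 5.8 CPM and 227 CPM of miR-802-5p, while DN 2 had 91.2 and 73.5 CPM. The other hepatocyte entry listed, miR-122-3p, was not in the counts used here.

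The exocrine pancreas miRNAs miR-216a-5p, miR-216b-5p and miR-217-5p had 9 reads in all in treated, 22 in DN and 0 in control libraries. All of those reads fell in treated 2 and DN 4, and none of the 3 passed the filter. The islet and neuroendocrine miRNAs miR-375-3p and miR-7a-5p summed to 414 to 639 CPM in treated, 356 to 543 in DN and 264 to 397 in control libraries. Neither passed the test, which called 0% of 619 entries. In treated against control the log2FC was 0.60 (SE 0.199) for miR-375-3p and 0.54 (SE 0.205) for miR-7a-5p. In DN against control it was 0.36 (SE 0.199) and 0.50 (SE 0.205). The islet markers have known expression outside islets. Of the intestinal pair, miR-215-5p had 34 reads in treated, 53 in DN and 24 in control libraries and did not pass the filter. The other, miR-31-5p, did not pass the test and was at 31.2 to 102 CPM in treated, 24.2 to 299 in DN and 24.6 to 184 in control libraries. The part of other tissues in the miR-802 values was not tested beyond these levels.

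miR-192-5p, a miRNA of kidney tubule and intestine, gave an internal comparison within the kidney signal. It exceeded miR-802-5p 91.8- to 269-fold in treated, 52.8- to 252-fold in DN and 348- to 2937-fold in control libraries. These ranges rest on the miR-802-5p values that chose it, and the share of all entries that separate in this way was not computed. On the log2 scale, miR-802-5p relative to miR-192-5p was −7.33 ± 0.53 in treated, −7.00 ± 0.85 in DN and −9.38 ± 1.12 in control libraries (SD, n = 6 each). DN 2 had the lowest miR-192-5p of all libraries, 3879 CPM, and there the ratio was the smallest at 52.8. Its miR-802-5p, 73.5 CPM, was itself below the 75.8 CPM of control 6. Relative to miR-204-5p, another epithelial miRNA, the log2 ratio was −2.40 ± 0.32 in treated, −2.59 ± 1.06 in DN and −4.11 ± 1.60 in control libraries, and here 4 of 6 treated and 3 of 6 DN libraries exceeded the highest control. miR-204-5p itself was at 893 ± 267 CPM in treated, 929 ± 234 in DN and 457 ± 92 in control kidneys (log2FC 0.96 and 1.02 against control, edgeR adjusted p = 0.0945 and 0.0806).

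**Figure D5:**
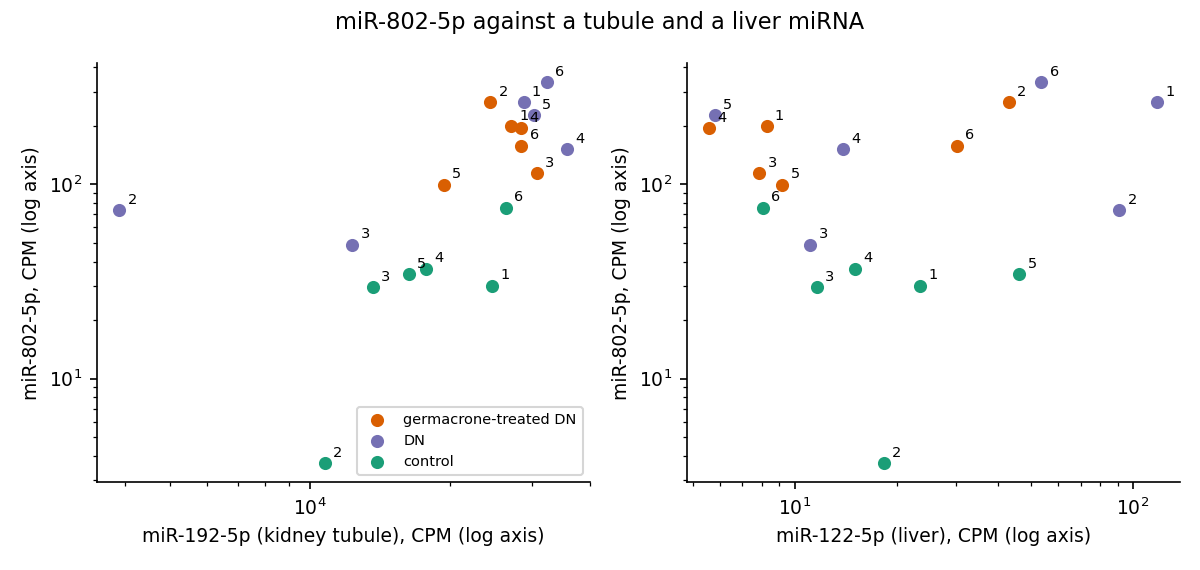
CPM of miR-802-5p against that of miR-192-5p (left, kidney tubule) and miR-122-5p (right, liver) in each library, numbered by replicate, on log axes. Relative to miR-192-5p the treated and DN points lie above the control points, for a miRNA chosen by its difference from control. The share of all entries that do so was not computed. Along the other axis, miR-122-5p runs from 5.58 to 118 CPM with the groups intermixed.

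Other miRNAs linked to obesity, insulin and glucose were listed to set miR-802 in context. All 20 were tested and 0 of 20 passed in any comparison, where edgeR called 0% of entries throughout. Their median log2FC was 0.13 in treated against control, 0.11 in treated against DN and −0.01 in DN against control, beside −0.00, −0.05 and 0.08 for all entries. miR-103-3p and miR-107-3p, raised in obese mouse liver and reported to lower insulin sensitivity, had a log2FC of −0.14 and −0.07 in treated against control and −0.12 and −0.34 in DN against control. miR-34a-5p, a p53-induced miRNA also raised in fatty liver, was at 969 ± 94.4 CPM in treated, 776 ± 317 in DN and 614 ± 305 in control kidneys. miR-143-3p, raised in obese mouse liver and abundant in smooth muscle, had a log2FC of 0.36 in treated against control and −0.01 in DN against control. The myeloid miRNA miR-223-3p had 3.23 in DN against control, above the 5p arm, with a median of 85.6 and a highest value of 5097 CPM in DN. Apart from it, the highest log2FC of the list was 0.93 in treated against control, for miR-144-3p, and 1.26 in DN against control, for miR-122-5p.

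Of the 8 listed miRNAs whose human genes lie on the chromosome of human MIR802, 7 passed the filter. In the test 0 of 7 passed, where edgeR called 0% of 619 entries in each comparison. Their median log2FC was −0.25 in treated against control, −0.02 in treated against DN and −0.14 in DN against control. For all entries these medians were −0.00, −0.05 and 0.08. Among them let-7c-5p had −0.47 and −0.20 against control in treated and DN kidneys, and miR-155-5p, an immune cell miRNA, had −0.67 and 0.91.

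By level over all 18 libraries, the miRNAs most like miR-802-5p among 326 compared were miR-28a-5p (Pearson r of log2 CPM 0.91), miR-340-5p (0.84), miR-301a-3p (0.82), miR-450b-5p (0.82) and miR-542-3p (0.81). None matched its size of difference: the largest log2FC among these 5 was 1.23 in treated against control, for miR-542-3p, and 0.74 in DN against control, for miR-340-5p. With group means subtracted, the most alike were miR-33-5p (0.94), miR-32-5p (0.93), miR-126a-5p (0.92), let-7a-1-3p (0.91) and miR-26b-5p (0.91). miR-33-5p, encoded in an intron of Srebf2 and known for repressing cholesterol export, was at 42.4 ± 17 CPM in treated, 48.8 ± 43.3 in DN and 36.2 ± 21.9 in control kidneys. Its log2FC was 0.23 in treated against control and 0.43 in DN against control. All of these values share library, depth and base composition: the GC content was 27.3% to 45.5% for the 9 of them with a sequence, below the median of 47.7%, and these correlations are a description with no test.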

How the data were processed

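Small RNA of mouse kidney was sequenced in 18 libraries. Per the labels' protocols, RNA was extracted with Trizol, libraries were made with a TruSeq Small RNA kit, and reads were filtered with ACGT101-miR. Trimmomatic 0.32, BWA, SAMtools and edgeR are listed in the submitters' processing notes without their roles, and neither the build nor the miRBase version is given in the sources used here. The deposited raw columns held estimated counts (76.9% of values above 0 were exactly whole, as were all counts of miR-802), rounded here to whole numbers. The deposited normalized columns held a signal equal to the raw count times a library factor (0.6644 to 1.427), used only as an alternative with limma 3.58.1 on log2(value + 1). Of 1534 entries, 350 had no name and were left out (0.0136% to 0.148% of a library's counts).

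All 18 libraries were fitted together in edgeR 4.0.16 (R 4.3.3): filterByExpr by group (minimum count 10, minimum total 15, keeping 619 entries), TMM factors, group as the only term, the quasi-likelihood test (legacy method, 2-sided), and Benjamini-Hochberg adjustment over the 619 entries with a threshold of 0.05. The biological coefficient of variation was 0.5. SEs come from the working weights of the fit. Log2 CPM used a prior count of 2. Permutation tests and intervals used scipy 1.17.1, and the hairpin was folded with RNAfold 2.7.2. The fit was also run on simulated counts with a lower dispersion than these data, so that run does not show how it performs at their spread.

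The members, the 10 lists and the marker sets were chosen with earlier results of these data known. Besides list members, the miRNAs named are the 5 most like miR-802-5p by Pearson r at a mean of at least 10 CPM, with and without group means, its neighbours in abundance, and miR-204-5p, which was chosen after its values were seen. Lists named with values in the results are the metabolic, human chromosome, liver, exocrine pancreas, islet, intestinal, kidney and leukocyte lists. The red blood cell list (3 tested) and striated muscle list (2 of 3 tested) also had no member that passed, where 0% of all entries passed. Their median log2FC was 0.09 and −0.67 in treated against control and −0.13 and −0.74 in DN against control. For all entries it was −0.00 and 0.08. Sequences are from RefSeq (GRCm38.p6), which held one for 405 of 485 mouse entries that passed the filter (83.5%), and neighbouring genes from GENCODE M21. One list and one site search are not reported here. All 45 pairs of same-group libraries differed beyond counting noise (smallest chi-square per degree of freedom 56.2). Alternatives were other scalings, filters, DESeq2 1.42.0, limma-voom, the 2 groups alone, a replicate block and each library left out. The GC offset, the edgeR 4 quasi-likelihood method and entries with a sequence alone were added after seeing the data.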

Additional observations from a re-analysis of the deposited data

How the results depend on the processing

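The contrasts with control chose the miRNA, so their log2FC under other settings is listed as values alone, not as tests. Under all 33 alternatives it lay between 1.84 and 2.77 for the 5p arm and between 2.83 and 4.58 for the 3p arm. In DN against control the 5p log2FC was recomputed with a filter of 10 CPM in 6 libraries (2.38), DESeq2 (2.38), limma-voom with sample weights (2.68), without control 2, DN 2 and DN 3 together (2.55), with the edgeR 4 method (2.43) and over entries with a sequence alone (2.39). Others were the GC offset (2.27), that offset without those 3 libraries (2.36) and that offset with the replicate block (2.26). The 3p log2FC there was recomputed with DESeq2 (3.08), limma-voom (4.58), without the 3 libraries (3.31), the GC offset without them (3.33) and the edgeR 4 method (3.19). In treated against control the 5p and 3p log2FC were recomputed with DESeq2 (2.27 and 3.12), limma-voom (2.30 and 4.18), only the 2 groups compared (2.28 and 3.13), without the 3 libraries (2.03 and 2.84), the GC offset without them (1.84 and 2.86) and the edgeR 4 method (2.34 and 3.25). The 5p log2FC there was 2.06 with the GC offset and 2.21 with that offset and the block. With each library left out in turn, the 5p log2FC ran from 2.11 to 2.68 in treated against control and from 2.19 to 2.77 in DN against control, and the 3p log2FC from 2.92 to 3.74 and from 2.83 to 3.69.

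Counts of entries called, 0 in each comparison, became 24 in treated against control and 4 in DN against control with DESeq2, 106 and 91 with limma-voom, 50 and 51 without the 3 libraries, 5 and 1 with the GC offset, 32 and 36 with the GC offset without them, 1 and 1 with the GC offset and block, and 3 and 6 with the edgeR 4 method. The 2 groups alone gave 56 in treated against control. The filter of 10 CPM and the entries with a sequence gave 2 and 2 in DN against control. Single libraries left out gave 0 to 7 in treated against control (7 without DN 2, 3 without DN 3) and 0 to 6 in DN against control (6 without DN 2, 6 without DN 3, 1 without control 2). The cause was not tested.

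Treated against DN had 0 entries called under every alternative, and its small values changed sign. The 5p log2FC was 0.21 with the replicate block and 0.06 on the authors' normalized values, and −0.31 to 0.16 with single libraries left out. The 3p log2FC was −0.01 with library size only, −0.40 with limma-voom, −0.47 without the 3 libraries, −0.47 with the GC offset without them, and −0.21 to 0.37 with single libraries left out. The differences in mean log2 CPM ran from −0.20 to 0.36 (5p), −0.01 to 0.94 (3p) and −0.18 to 0.40 (summed arms) with single libraries left out. The correlation of the arms in DN was 0.72 without the 2 farthest libraries. With Spearman's rho, 3 of the 5 most alike miRNAs by level and 2 of the 5 with group means subtracted were the same.

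Same-numbered libraries were not most alike: their deviations correlated at −0.33 to 0.26, and 0 of 18 libraries correlated best with their own number. The labels do not say what a number marks, and these correlations cannot show whether a litter or day was shared. With the replicate block the 5p log2FC was 2.55 in treated against control and 2.34 in DN against control, and the 3p log2FC 4.02 and 3.19.

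In control kidneys the level of the 3p arm rests on few reads, 62 over 6 libraries. Its fold changes ranged more widely between settings than those of the 5p arm. Strain and disease cannot be told apart. The intervals of treated against DN leave room for changes of either sign.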
